A study of Bubalus bubalis with 36 samples.

Results

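The miRNAs of back subcutaneous fat were compared with those of omental fat in 6 buffaloes (Bubalus bubalis), each of which gave a sample of both depots. The 12 libraries were taken by their titles from a series of 36, which holds 6 libraries from each of 6 fat depots of the same animals, and were paired by the buffalo number of the title. The back libraries (BSAT in the series' own abbreviation) came from fat under the skin of the back, and the omental libraries (OAT) from fat of the omentum, the sheet of tissue that hangs from the stomach. Both groups share 1 husbandry: weaning at 3 months, fattening from 15 months and slaughter at 20 months of age. No treatment, genotype, breed or sex is given in the sources used here. All 1682 features of the count table entered: 695 with bovine miRNA names and 987 candidate loci without a miRNA name. Of these, 529 passed the filter on low counts and were tested, 328 miRNAs and 201 candidate loci.

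A miRNA is a short RNA that guides a silencing complex to partly matching messenger RNAs and lowers their output. Fat depots arise from different parts of the embryo, and their cells keep a memory of position in the expression of HOX genes, among which the miR-10 and miR-196 genes lie. Subcutaneous fat of the back lies on muscle and under skin. The omentum is covered by mesothelium, a flat epithelium, and holds clusters of leukocytes known as milky spots, so that whole omental tissue contains other cells than fat cells. In bulk tissue, fewer cells of a type and less of a miRNA per cell cannot be told apart.

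The 12 libraries held 11208835 to 13432169 counted reads and 891 to 1052 detected features each, and the 10 most abundant features took 48.5% to 56.2% of a library. The table holds no messenger RNA, and the label of fat tissue was not checked. Levels are in CPM, the count scaled by the library total times its TMM factor. Some libraries stood apart. The back library of animal 3 lay beyond Dixon's 95% limit, far from the other back libraries, in 28 of the 529 features (5.29%), against at most 6 features for any other back library. The back library of animal 2 carried the skeletal muscle miRNA miR-206 at 2115 CPM, while the other 11 libraries held 1.92 to 71.3 CPM. The omental libraries of animals 2, 4 and 6 were the 3 highest omental libraries in several miRNAs of epithelium and leukocytes, whose values are given below. They were also the 3 highest in miR-196b, miR-218, miR-138 and miR-18b. For the leukocyte miRNA miR-150 the 3 highest were those of animals 2, 5 and 6. How many of all 529 features had animals 2, 4 and 6 highest was not counted. Library names carry a letter, A or B, with no meaning given in the labels: the back library of animal 4 and the omental libraries of animals 4 and 6 carry A, the other 9 B.

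Of the 529 features, 3 differed between back and omental fat (0.567%) in edgeR's paired quasi-likelihood test with Benjamini-Hochberg adjustment at 0.05, 2 higher (0.378%) and 1 lower (0.189%) in back fat, and all 3 carried miRNA names. The HOX-cluster miRNAs miR-196b and miR-196a were higher in back fat, and miR-218, which is encoded within SLIT genes and best known from motor neurons, was lower. Their fitted differences were large: 66.6-fold, 28.9-fold and 6.67-fold. At an unadjusted p under 0.05 there were 60 features (11.3%), 27 higher (5.1%) and 33 lower (6.24%) in back fat. In the same direction in 6 of 6 animals were 61 features (11.5%), 31 higher (5.86%) and 30 lower (5.67%) in back fat. The median log2 difference over all 529 features was −0.047, and 241 of them had a higher fitted level in back fat. These values over all features are the background of the list counts below.

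miR-196b ranged from 629 to 4099 CPM with a median of 1802 in back fat. Omental libraries held 6.41 to 420.5 CPM with a median of 15.1. The groups did not overlap, as in 7 of all 529 features (1.32%), 3 of them higher (0.567%) and 4 lower (0.756%) in back fat. The highest omental library, that of animal 2, stood above the other omental libraries and still below the lowest back library, that of animal 1. The fitted log2 difference of back minus omental fat was 6.06 ± 0.92 (SE; adjusted p = 0.0176 in edgeR), with back fat higher in 6 of 6 animals.

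miR-196a, whose mature sequence is near-identical to that of miR-196b, ranged from 27.6 to 182 CPM with a median of 132 in back fat. The omental range was 0.573 to 36.6 CPM with a median of 3.01. The groups overlapped through 1 library of each depot: 36.6 CPM in the omental fat of animal 2 exceeded 27.6 CPM in the back fat of animal 6. The other omental libraries held at most 3.75 CPM. The log2 difference was 4.85 ± 0.62 (SE; adjusted p = 0.00695 in edgeR), higher in back fat in 6 of 6 animals. Reads of the pair can be divided between the names by counting. Summing the pair was added after the values had been seen. The sum differed by 5.90 ± 0.86 on the log2 scale (SE; adjusted p = 0.0205 in edgeR).

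miR-218 ranged from 17.1 to 27.9 CPM with a median of 25.4 in back fat, a narrow range. In the omentum it ranged from 85.8 to 274 CPM with a median of 182. Every omental library lay above every back library. The log2 difference was −2.74 ± 0.36 (SE; adjusted p = 0.00695 in edgeR), with back fat lower in 6 of 6 animals. The omental libraries of animals 2, 4 and 6, which were also the 3 highest in miR-200a and miR-142-5p, held 196.8 to 274 CPM of miR-218. The other 3 omental libraries held 85.8 to 168 CPM, above the highest back value of 27.9 CPM. Their miR-200a was at 1.63 to 4.40 CPM. The part of epithelial cells in the miR-218 difference was not tested. The neural list, which held miR-218, is given with the other marker lists below.

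**Figure D1:**
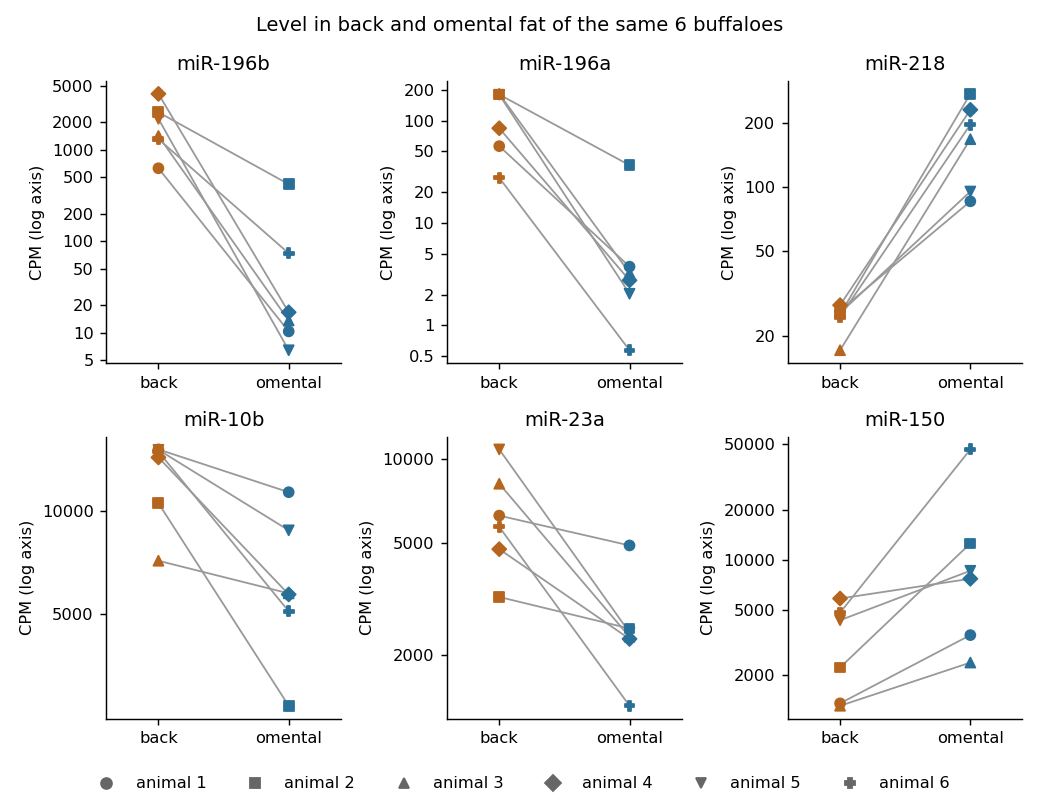
Level of 6 miRNAs (CPM, log axis) in back and omental fat, with a line joining the 2 libraries of 1 animal and a marker for each animal. The lines of miR-196b, miR-196a and miR-218, the 3 that passed the adjusted test, all run one way, and so do those of miR-10b, miR-23a and miR-150, which did not pass.

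All 3 differences kept their direction with each animal left out, and some of the calls were lost. With each animal left out in turn, the log2 difference lay between 5.54 and 6.67 for miR-196b, 4.53 and 5.32 for miR-196a, and −2.88 and −2.59 for miR-218. Without animal 3 none of the 3 passed: the adjusted p in edgeR was 0.169 for miR-196b (5.81) and 0.0837 for miR-196a (4.57) and miR-218 (−2.68). Without animal 4 the adjusted p was 0.0844 for miR-196b (5.58) and 0.0607 for miR-196a (4.83) and miR-218 (−2.67). Without animal 1, miR-196b alone missed the threshold (6.22, adjusted p = 0.0848). Within the 4 animals whose 2 libraries both carry letter B, the differences were 6.07, 4.63 and −2.58, with an adjusted p of 0.193 each. Letter A has 1 animal with both libraries, too few for a value. Without the animal as a block, miR-218 alone passed (−2.84), and miR-196b (4.50) and miR-196a (3.85) had an adjusted p of 0.136.

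More features passed when other libraries or another model set the spread, and the same 3 were among them in each of the following fits. The paired edgeR fit on all 36 libraries called 15 of 667 features (2.25%), 9 higher and 6 lower in back fat. DESeq2, with the animal as a block, called 29 of 529 (5.48%), 14 higher and 15 lower, and limma on log2(RPM + 1) called 5 (0.945%). With no filter on low counts edgeR called 21 of 1552 features (1.35%), 8 higher and 13 lower. Among these were miR-199b, miR-370, miR-223, miR-23a, miR-150, miR-27a-5p, miR-106a and miR-200a. SEs of the no-filter fit followed a feature's own spread less, as given below for miR-200a. With library totals in place of scaling factors, 4 features were called, 2 in each direction, against 2 higher and 1 lower as reported. Of the miRNAs called on all 36 libraries, miR-10b, miR-199b, miR-23a, miR-224, miR-22-5p, miR-223, miR-370 and miR-1247-5p did not pass among the 12. They are described below with the 12-library values.

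**Figure D2:**
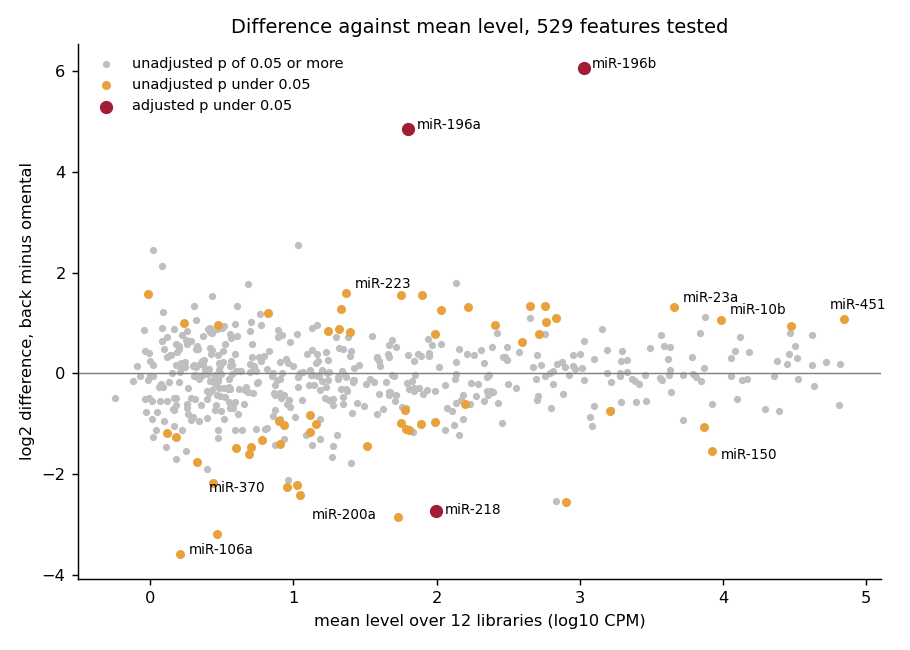
Log2 difference of back minus omental fat (vertical axis) against the mean level over the 12 libraries (log10 CPM, horizontal axis) for the 529 features tested. The 3 red points passed the adjusted test, and miR-196b and miR-196a lie apart from all other points on the back side.

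Of the 5 HOX-cluster miRNAs in the table, 4 were tested and 2 rose, as described above. miR-10b, encoded beside HOXD4, ranged from 7136 to 15086 CPM with a median of 14579 in back fat. Omental values ran from 2692 to 11316 CPM with a median of 5712, so that the groups overlapped. Its log2 difference was 1.06 ± 0.30 (SE), with the back value above the omental one in 6 of 6 animals and an adjusted p of 0.183 in edgeR. It was called on all 36 libraries (1.14, adjusted p = 0.00996) and by DESeq2 (adjusted p = 0.0386). miR-10a, its near-identical relative beside HOXB4, was at 597 ± 156 CPM in back and 938 ± 560.3 CPM in omental fat (SD, n = 6), a log2 difference of −0.41 ± 0.43, with back fat higher in 2 of 6 animals. miR-615, which lies in the HOXC cluster, held 2 to 17 reads in back and 2 to 19 reads in omental libraries and was not tested. The median over the 4 tested members was 2.96, against −0.047 over all features.

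**Figure D3:**
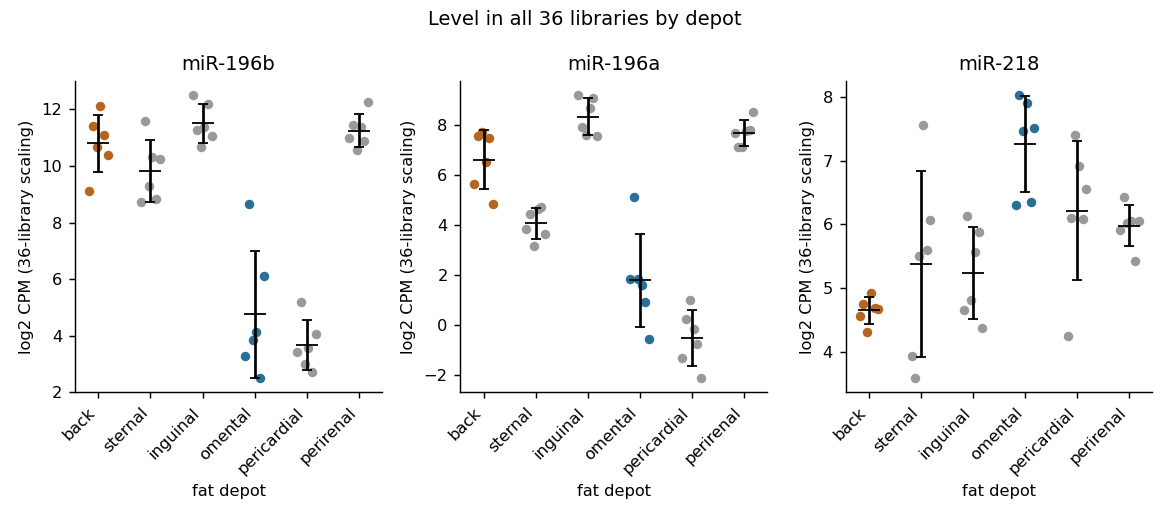
Log2 CPM of miR-196b, miR-196a and miR-218 in all 36 libraries by depot, with back fat in brown and omental fat in blue. Points are libraries (6 per depot), the dash is the depot mean and the bars are 1 SD; omental and pericardial fat are low in both miR-196 members, and back and omental fat are the lowest and highest depots for miR-218.

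The differences were also set against 2 other pairs of depots, inguinal with perirenal and sternal with pericardial fat, that share no library with them. Scaled over all 36 libraries, miR-196b was at 2143 ± 1342 CPM in back and 85.9 ± 156 CPM in omental fat (SD, n = 6 each). It was at 3228 ± 1633 CPM in inguinal and 2629 ± 1198 CPM in perirenal fat. The difference of miR-196b was 5.71 ± 0.72 between back and omental fat and 0.56 ± 0.58 between inguinal and perirenal fat, and these 2 differences differed by 5.15 ± 0.88 (adjusted p = 0.00158, interaction test of edgeR). For miR-196a the 2 differences were 4.45 ± 0.73 and 0.56 ± 0.63 (adjusted p of their difference 0.0385). Against sternal minus pericardial fat, the other pair, no difference was called for either: miR-196b differed there by 6.22 ± 0.71 and miR-196a by 4.78 ± 0.74 (difference of differences −0.51 ± 0.85 and −0.34 ± 0.89).

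Among the 667 features, the back to omental difference departed from the inguinal to perirenal one in 4 (0.6%), 3 upward and 1 downward, and from the sternal to pericardial one in 25 (3.75%). Besides the miR-196 pair, the 4 were miR-451 of red blood cells (1.24 ± 0.40 against −1.13 ± 0.40) and miR-1247-5p (−2.45 ± 0.50 against 0.59 ± 0.48), which is named because it was called here. Among the 12 libraries miR-1247-5p was at 2.78 ± 1.31 CPM in back and 19.4 ± 13.9 CPM in omental fat (SD, n = 6; −2.42 ± 0.47, adjusted p = 0.0691 in edgeR). Of the 4, miR-196b was called without any 1 animal, miR-196a was not called without animals 1, 3, 4, 5 or 6, miR-451 without 1, 2, 4, 5 or 6, and miR-1247-5p without 1, 3, 4, 5 or 6. Without the animal as a block none of the 667 was called in edgeR, with 59 at an unadjusted p under 0.05. miR-10a and miR-10b were among the 25: the back to omental difference of miR-10a was −0.39 ± 0.32 against 3.49 ± 0.34 between sternal and pericardial fat (adjusted p = 7.68e-07), and that of miR-10b 1.14 ± 0.26 against 2.92 ± 0.27 (adjusted p = 0.00390). Both kept these calls without any 1 animal. The count of 25 was 4 without animal 5, all 4 downward.

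miR-218 had another order of depots. It was at 25.1 ± 3.51 CPM in back, 41.6 ± 20.2 CPM in inguinal and 62.8 ± 65.4 CPM in sternal fat, and at 64.4 ± 14.0 CPM in perirenal, 89.6 ± 51.3 CPM in pericardial and 170.0 ± 76.7 CPM in omental fat. Back fat had the lowest and omental fat the highest mean log2 level of the 6 depots, as in 19 of the 529 features, with 16 more the other way round. Its difference from the other pairs did not pass (adjusted p = 0.269 against inguinal minus perirenal and 0.0760 against sternal minus pericardial fat, edgeR).

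The miR-200 family keeps epithelial cells in their state and is a marker of epithelium. All 3 tested members had a lower fitted level in back fat and none passed in edgeR with the filter on low counts (1 at an unadjusted p under 0.05, 1 called by DESeq2, 0 by limma). Over all 529 features, 241 had a higher level, and 6.24% were lower at that p. miR-200a ranged from 0.634 to 30.7 CPM with a median of 1.30 in back fat. Omental fat held 1.63 to 368 CPM with a median of 26.3. The omental values fell far apart: animals 2, 4 and 6 held 368, 182 and 48.2 CPM, and animals 1, 3 and 5 held 4.40, 1.63 and 2.91 CPM. Animal 6 was also the 1 animal with a raised back value. The log2 difference of miR-200a was −2.85 ± 1.21 (adjusted p = 0.415 in edgeR), lower in back fat in 6 of 6 animals. With no filter on low counts miR-200a passed in edgeR (−2.69 ± 0.59, adjusted p = 0.00133), as it did in DESeq2 (adjusted p = 0.0200). The same reads gave an SE of 1.21 with the filter, while the SE of let-7c rose from 0.25 with it to 0.35 without. The no-filter p thus follows the spread of miR-200a among the animals less closely. miR-429, from the same precursor cluster, had the same 3 highest omental libraries (21.7 to 150.7 CPM against 0.232 to 2.72 CPM in the rest), a log2 difference of −1.78 ± 1.30, and a lower back value in 4 of 6 animals. miR-200c was at 2.81 ± 0.892 CPM in back and 8.14 ± 7.16 CPM in omental fat (−1.10 ± 0.55). The other 2 members did not pass the filter. miR-200b held 0 to 23 reads in back and 0 to 486 reads in omental libraries, with most of them in animals 2, 4 and 6, and it was called in edgeR with no filter. miR-141 held 3 to 12 and 3 to 73 reads.

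miR-449a, a miRNA of ciliated and other epithelia, followed the same libraries. It held 1009.7, 318 and 60.9 CPM in omental fat of animals 2, 4 and 6, and 27.7 to 39.5 CPM in the other 3. Back fat held 17.6 to 61.5 CPM, so that only animals 2 and 4 exceeded it. The log2 difference was −1.23 ± 0.78 (adjusted p = 0.540 in edgeR). Its relative miR-34a, a target of p53, was at 0.46 ± 0.38. Neither member passed in edgeR, at an unadjusted p under 0.05, in DESeq2 or in limma. In the list of miR-183, miR-182, miR-96, miR-203 and miR-205, miR-183 was the 1 tested member, at 1.21 ± 0.74 and at most 2.94 CPM in any library, and did not pass in any of the 3 tools.

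Of the 8 tested leukocyte features 7 had a lower and 1 a higher fitted level in back fat. Their median log2 difference was −0.69, against −0.047 over all 529 features, of which 241 had a higher level. None of the 8 passed in edgeR on the 12 libraries. At an unadjusted p under 0.05, 1 was higher and 1 lower in back fat, DESeq2 called the same 2 and limma none. Over all features 11.3% reached that p and DESeq2 called 5.48%. miR-150, abundant in mature lymphocytes, ranged from 1306 to 5829 CPM with a median of 3267 in back fat. Omental libraries held 2385 to 46647 CPM with a median of 8132, with the highest value in animal 6. Back fat was lower in 6 of 6 animals (−1.55 ± 0.41 on the log2 scale, adjusted p = 0.183 in edgeR). miR-223, abundant in neutrophils and other myeloid cells, was the 1 member with a higher fitted level in back fat: it ranged from 16.2 to 59.4 CPM with a median of 28.8 there and from 3.88 to 24.6 CPM with a median of 10.9 in omental fat. Back fat was higher in 6 of 6 animals (1.60 ± 0.41, adjusted p = 0.168 in edgeR), and on all 36 libraries miR-223 was called (adjusted p = 0.0377).

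The 2 arms of miR-142, made in all blood cell lineages, had their 3 highest omental values in animals 2, 4 and 6. miR-142-5p held 90.5, 23.1 and 84.6 CPM there and 0.843 to 4.03 CPM in the other omental libraries, against 1.80 to 5.73 CPM in back fat. miR-142-3p held 8.74 to 135.7 CPM and 0.187 to 4.18 CPM in the same groups of libraries. Their log2 differences were −1.45 ± 1.0 and −1.66 ± 1.45. Back fat was higher in 2 of 6 animals for miR-142-5p and in 3 of 6 for miR-142-3p. Summed over its 8 features, the leukocyte list held 2753 to 7642 CPM in back and 4070.0 to 52061 CPM in omental fat, with the omental sum higher in 6 of 6 animals. Its most abundant member was miR-150, at a mean of 3300 CPM in back and 13560 CPM in omental fat, so that the sum largely repeats miR-150. The part of these cells in the differences of miR-196 and miR-218 was not tested.

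**Figure D4:**
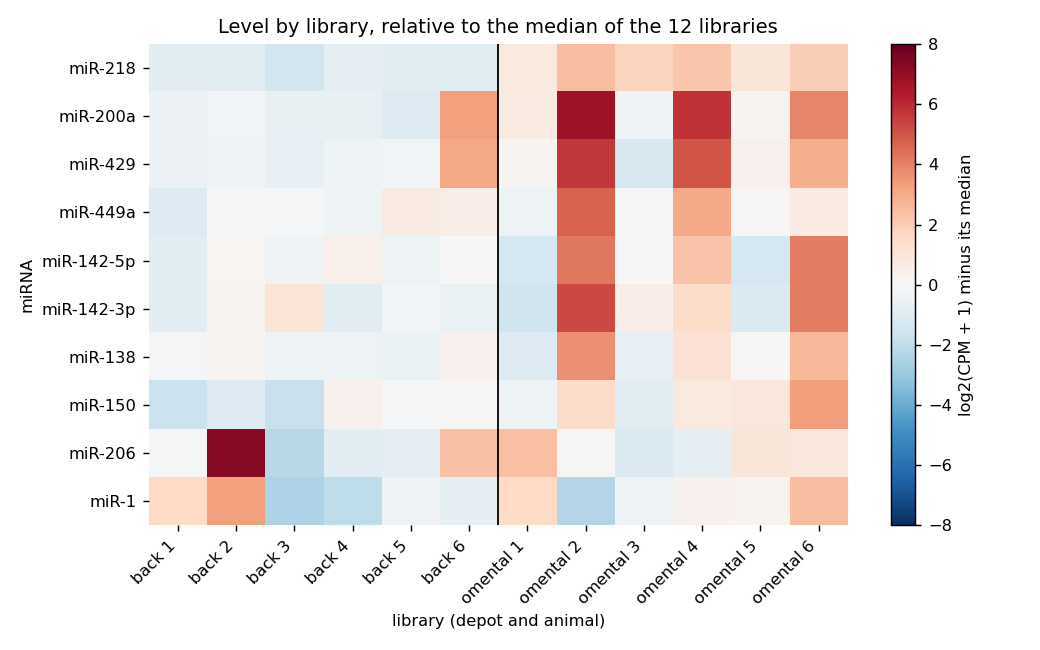
Log2(CPM + 1) of 10 miRNAs in the 12 libraries, each row relative to its own median (red above, blue below). The omental libraries of animals 2, 4 and 6 are high in miR-200a, miR-429 and both arms of miR-142, miR-218 is high in all 6 omental libraries, and miR-206 is high in the back library of animal 2.

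miRNAs of red blood cells were at high levels in both depots. miR-451 ranged from 39836 to 175729 CPM with a median of 90357 in back fat. The omental range was 18006 to 90129 CPM with a median of 37267. The back value was higher in 6 of 6 animals, with a log2 difference of 1.08 ± 0.41 (adjusted p = 0.377 in edgeR). miR-486 was at 244 ± 134 CPM in back and 87.8 ± 34.0 CPM in omental fat (SD, n = 6), a log2 difference of 1.31 ± 0.34 with 6 of 6 animals higher in back fat (adjusted p = 0.168). miR-144, transcribed with miR-451, was at −0.23 ± 0.43 (higher in back fat in 2 of 6 animals). None of the 3 passed in edgeR (2 higher in back fat at an unadjusted p under 0.05, 1 called by DESeq2, 0 by limma). Over all features 5.1% were higher at that p, DESeq2 called 5.48% and limma 0.945%. The summed level of the list was 40139 to 176209 CPM in back and 18088 to 90256 CPM in omental fat.

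Muscle miRNAs marked single libraries. miR-1 ranged from 9.88 to 576 CPM with a median of 41.3 in back fat. In the omentum it ranged from 10.8 to 335 CPM with a median of 74.9. miR-133a reached 55.5 CPM in the back library of animal 2 and at most 6.67 CPM in the other 11. The log2 differences were −1.03 ± 1.06 for miR-1, 0.44 ± 1.10 for miR-133a, −0.21 ± 1.17 for miR-206 and −0.63 ± 0.47 for miR-499, and none of these 4 passed in edgeR, at an unadjusted p under 0.05, in DESeq2 or in limma. The summed muscle list held 20.6 to 2799.5 CPM in back and 53.3 to 427 CPM in omental fat. Without animal 2, whose back library was the highest, the 3 calls were unchanged: 6.67 for miR-196b, 5.32 for miR-196a and −2.59 for miR-218.

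In the neural list 1 of 7 tested members passed in edgeR, miR-218, which was lower in back fat. Of the 7, 5 had a lower and 2 a higher fitted level in back fat. At an unadjusted p under 0.05, 3 were lower, against 6.24% of all features. The 2 higher members were miR-128 (0.52 ± 0.31, higher in 5 of 6 animals) and miR-132 (0.79 ± 0.46, 4 of 6). miR-128 averaged 285 CPM in back and 204 CPM in omental fat. miR-9-5p, which acts in neural progenitors, ranged from 2.01 to 12.1 CPM with a median of 3.42 in back fat. Omental values ran from 4.18 to 19.9 CPM with a median of 11.4. It was lower in back fat in 6 of 6 animals (−1.40 ± 0.38, adjusted p = 0.183 in edgeR, 0.0103 in DESeq2). miR-129 (−1.27 ± 0.56) lay at or below 6.58 CPM in every library. miR-138 (−1.22 ± 0.68) held 68.1, 11.4 and 33.5 CPM in omental fat of animals 2, 4 and 6 and 1.78 to 4.95 CPM in the other omental libraries. Back fat held 2.90 to 6.12 CPM of miR-138 and was higher in 2 of 6 animals. miR-124a, a defining miRNA of neurons, held at most 65 reads in a library and none in 4 of the 12. The summed level of the list was 266 to 494 CPM in back and 297 to 703 CPM in omental fat.

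In the remaining marker lists no feature passed in edgeR. All 7 smooth muscle and stroma features had a higher fitted level in back fat, against 241 of all 529 features. DESeq2 called 1, limma 0, and 1 was higher at an unadjusted p under 0.05, against 5.1% of all features. That 1 was miR-199b, a miRNA of mesenchymal cells, which ranged from 471 to 1292 CPM with a median of 835 in back fat. Omental fat held 206 to 534 CPM with a median of 274. Back fat was higher in 6 of 6 animals (1.33 ± 0.28, adjusted p = 0.0833 in edgeR), and the difference was called on all 36 libraries (1.44, adjusted p = 0.00996). miR-199a-5p (0.90 ± 0.43), miR-145 (1.11 ± 0.58) and miR-214 (0.57 ± 0.36) were higher in 5, 4 and 5 of 6 animals. For miR-145, animal 3 reached 2163 CPM in back fat, and the remaining animals lay between 238 and 464 CPM. The endothelial miR-126 was at 0.28 ± 0.27 for its 5p and 0.24 ± 0.25 for its 3p arm. In the kidney and gut list miR-192 (−0.22 ± 0.27), miR-194 (0.21 ± 0.36), miR-194b-3p (0.64 ± 0.62) and miR-215 (−1.04 ± 0.48) were tested. The pancreatic islet miRNA miR-375 was at −0.60 ± 0.63, with values from 0 to 73.9 CPM, and the liver miRNA miR-122 held 1 to 9 reads in back and 1 to 392 reads in omental libraries, too low for the test. None of these 7 features passed in any of the 3 tools or at an unadjusted p under 0.05.

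**Figure D5:**
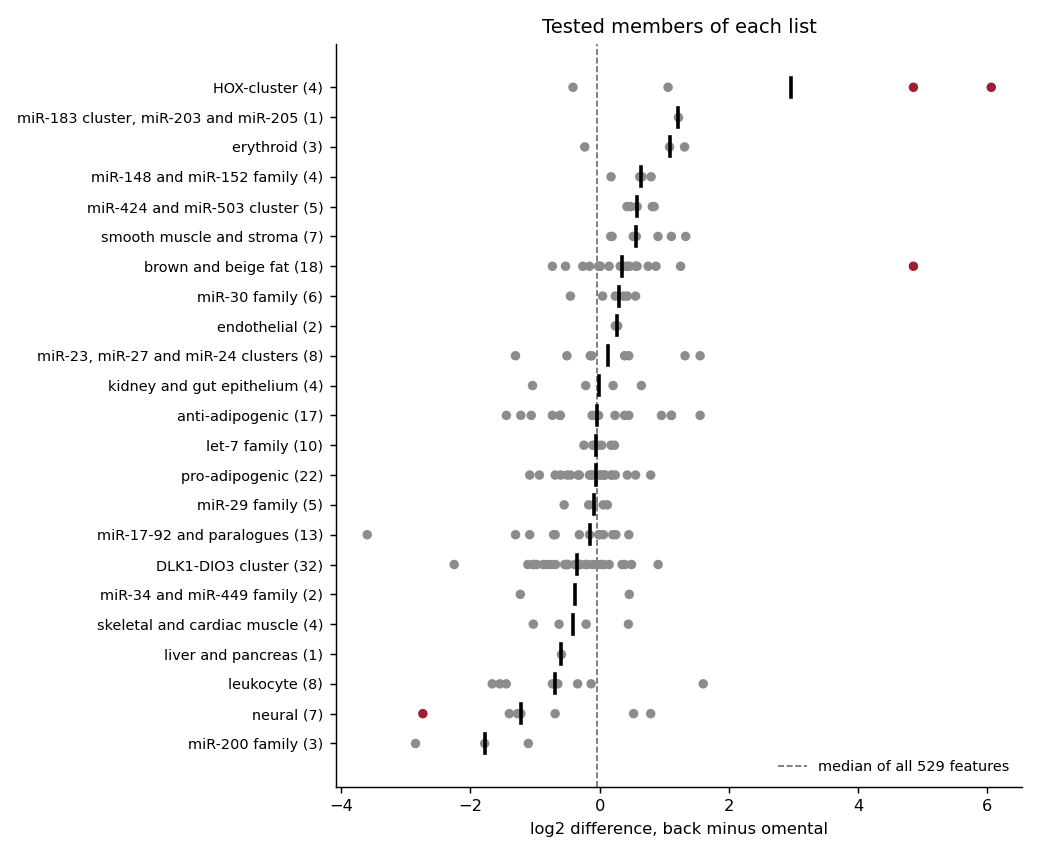
Log2 difference of back minus omental fat for the tested members of each list (points, number in brackets), with the list's median as a black bar, red for an adjusted p under 0.05 and a dashed line at the median of all 529 features. The HOX-cluster list has the highest median (2.96) and the miR-200 family the lowest (−1.78).

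miRNAs reported to act on fat cell formation ranged from near the lower limit of the test to among the most abundant. Pointing one way in 6 of 6 animals were 4 of 17 tested features of the list reported to hold it back, 0 of 22 of the list reported to favour it and 1 of 18 of the brown and beige fat list, against 11.5% of all features. The lists count both arms of a precursor, and the 4 include the lesser arms miR-22-5p and miR-27a-5p. The main arm miR-27a-3p was at 0.45 ± 0.26, and that of miR-22 is given below. Of the 17 features none passed in edgeR on the 12 libraries, and 3 were higher and 2 lower at an unadjusted p under 0.05. The 3 higher ones, miR-224 and these 2 lesser arms, were those called by DESeq2, and limma called 0. Over all features 5.1% were higher at that p and DESeq2 called 5.48%. miR-224, which was called on all 36 libraries (adjusted p = 0.00996), ranged from 647 to 1164 CPM with a median of 908 in back fat. Omental libraries held 283 to 829 CPM with a median of 405. It was higher in back fat in 6 of 6 animals (1.11 ± 0.28, adjusted p = 0.168 in edgeR). miR-22-5p ranged from 287 to 425 CPM with a median of 312 in back and from 132 to 256 CPM with a median of 158 in omental fat, without overlap. Its log2 difference was 0.96 ± 0.24 (adjusted p = 0.168 on 12 and 0.00142 on 36 libraries), while its other arm, miR-22-3p, was at −0.038 ± 0.24. miR-125a (−1.06 ± 0.31, adjusted p = 0.183) was lower in back fat in 6 of 6 animals. The median of the list was −0.038, and 0.032 with RLE factors, where its sign flips. The median of all features flipped in the same way, from −0.047 to 0.024.

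In the miR-23, miR-27 and miR-24 clusters, whose miR-27 members restrain fat cell differentiation, none of 8 features passed in edgeR (2 higher at an unadjusted p under 0.05, 2 called by DESeq2, 0 by limma). Over all features 5.1% were higher at that p and DESeq2 called 5.48%. miR-23a ranged from 3216 to 10820.0 CPM with a median of 6001 in back fat. The omental range was 1314 to 4912 CPM with a median of 2359. It was higher in back fat in 6 of 6 animals (1.32 ± 0.34, adjusted p = 0.168 in edgeR) and was called on all 36 libraries (adjusted p = 0.0248). miR-27a-5p, the lesser arm of its neighbour, was higher in 6 of 6 animals (1.55 ± 0.44, adjusted p = 0.183). The main arm miR-27a-3p was at 0.45 ± 0.26 and miR-27b at 0.38 ± 0.24, higher in 4 and 5 of 6 animals.

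None of the 22 tested features of the list reported to favour fat cell formation passed in edgeR, DESeq2 or limma, and none reached an unadjusted p under 0.05. miR-103, which acts on insulin signalling, was at 716 ± 185 CPM in back and 434 ± 191 CPM in omental fat (SD, n = 6; 0.79 ± 0.37, higher in 5 of 6 animals). miR-204 was at −0.93 ± 0.50, miR-30b-5p at 0.55 ± 0.34 and miR-30e-5p at −0.45 ± 0.32. In the brown and beige fat list miR-196a was the 1 of 18 features that passed in edgeR. miR-365-3p, made with miR-193b in brown fat, ranged from 66.7 to 362 CPM with a median of 115 in back fat. In the omentum it ranged from 39.1 to 80.8 CPM with a median of 50.9. Its log2 difference was 1.25 ± 0.47 (adjusted p = 0.377 in edgeR), higher in 5 of 6 animals. miR-193a-5p was at 0.87 ± 0.40.

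The imprinted miRNAs of the DLK1-DIO3 cluster are expressed from the maternal chromosome. Of its 32 tested features 25 had a lower and 7 a higher fitted level in back fat (23 lower with RLE factors and 27 with library totals), with a median of −0.35, against −0.047 over all features. Over all 529 features, 241 had a higher level. None of the 32 passed in edgeR on the 12 libraries, and 5 were lower at an unadjusted p under 0.05, against 6.24% of all features. DESeq2, limma and the 36-library fit each called 1, miR-370, against 5.48%, 0.945% and 2.25% of all features. miR-370 ranged from 0.415 to 8.48 CPM with a median of 1.88 in back fat. Omental values ran from 3.47 to 46.6 CPM with a median of 9.50. It was lower in back fat in 6 of 6 animals (−2.25 ± 0.47, adjusted p = 0.0833 in edgeR). miR-493 (−0.97 ± 0.37) was lower in 6 of 6 animals, and miR-376b (−1.01 ± 0.40) and miR-411c-3p (−1.03 ± 0.42) in 5 of 6.

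In 2 proliferation-linked lists no feature passed in edgeR. All 5 tested features of the miR-424 and miR-503 cluster, which slow the cell cycle, had a higher fitted level in back fat, with a median of 0.58. Over all 529 features, 241 had a higher level. None of the 5 passed in edgeR, DESeq2 or limma, and 2 reached an unadjusted p under 0.05: miR-542-5p (0.84 ± 0.35) and miR-424-3p (0.81 ± 0.34), each higher in 5 of 6 animals. At that p 5.1% of all features were higher. miR-450a was at 0.48 ± 0.28 and miR-424-5p at 0.58 ± 0.44. Of 13 tested features of miR-17-92 and its paralogues, which promote growth, 9 had a lower and 4 a higher fitted level in back fat. With RLE factors 7 were lower and 6 higher. The list's median was −0.16, against −0.047 over all 529 features, of which 241 had a higher level. None of the 13 passed in edgeR, and limma called 0. At an unadjusted p under 0.05, 1 was lower, against 6.24% of all features, and DESeq2 called the same 1, against 5.48%. That 1 was miR-106a (−3.60 ± 1.28), at 0.922 ± 2.06 CPM in back and 2.30 ± 1.94 CPM in omental fat. miR-18b (−1.30 ± 0.64) had its 3 highest omental values in animals 2, 4 and 6 (11.3 to 32.3 CPM, against 1.46 to 6.89 CPM in the others). miR-92b was at −0.71 ± 0.42 and miR-25 at 0.45 ± 0.27.

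The remaining families showed no call. In edgeR, DESeq2 and limma none of 4 features of the miR-148 and miR-152 family, 5 of the miR-29 family, 6 of the miR-30 family and 10 of the let-7 family passed, and none reached an unadjusted p under 0.05. All 4 of the miR-148 and miR-152 family had a higher fitted level in back fat, against 241 of all 529 features. The values were miR-152 0.80 ± 0.46, miR-148c 0.65 ± 0.50, miR-148b 0.62 ± 0.43 and miR-148a 0.18 ± 0.31. For miR-148c, animal 3 reached 248 CPM in back fat, and the remaining animals lay between 22.7 and 42.0 CPM. In the miR-29 family, which acts on collagens, miR-29b was at −0.55 ± 0.41, miR-29d-3p at −0.17 ± 0.37, miR-29c at 0.12 ± 0.30 and miR-29a at −0.095 ± 0.28. In the miR-30 family miR-30c was at 0.43 ± 0.33 and miR-30f at 0.37 ± 0.32.

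Of the features with a miRNA name, the 5 most abundant in the 12 libraries were miR-451, miR-26a, let-7c, let-7i and let-7f. let-7c, a regulator of growth and insulin signalling like its family, was at 56329 ± 10274 CPM in back and 48706 ± 11469.6 CPM in omental fat (SD, n = 6), a log2 difference of 0.23 ± 0.25. let-7i was at 0.18 ± 0.26, let-7f at −0.24 ± 0.26 and let-7d at −0.073 ± 0.24. miR-26a, which favours brown fat cell formation, ranged from 7477 to 120207 CPM with a median of 30949 in back fat. Omental fat held 8650.0 to 143454 CPM with a median of 85234. Its values fell into high and low libraries within both depots, and the log2 difference was −0.62 ± 0.48 (adjusted p = 0.626 in edgeR). Its share of the summed reads of miR-26a and miR-26c is given at the end.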

How the data were processed

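Small RNA of the back and omental samples of 6 buffaloes (12 libraries) was analysed. Per the labels' protocols, RNA came from an RNeasy Lipid Tissue kit and libraries from a TruSeq RNA LT kit. The authors deposited read counts per feature and library, which are whole numbers and not normalized. They also deposited RPM values, which are reads scaled by the library total. Aligner, miRNA caller and build: not given in the sources used here. The submitters' processing notes name DESeq2 1.24.0 without saying what it did. A blank line with 0 counts was left out.

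Samples were grouped by depot and paired by animal from the labels. The labels say that the same animals gave both depots. Within an animal, the deviations of its libraries from their depot means correlated by 0.128 to 0.505, over 0.1 in 6 of 6 pairs. The mean was 0.261 within an animal. The mean between different animals, −0.052, is largely fixed by the centring on depot means and gives no separate contrast. The back libraries of animals 3 and 5 correlated more with the omental library of another animal than with their own. All pairs of libraries differed by more than sampling noise (smallest chi-square per degree of freedom 1544).

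The test was the two-sided quasi-likelihood F test of edgeR 4.0.16 in R 4.3.3 (estimateDisp, robust glmQLFit), with the animal as a block, TMM factors (0.867 to 1.28), filterByExpr at a minimum count of 10 and 5 residual degrees of freedom. Benjamini-Hochberg adjustment covered all features tested, and a call needed an adjusted p under 0.05. An SE is the absolute log2 difference over the root of F. CPM use TMM-scaled totals, and an animal's direction is that of its log2 CPM (prior count 2). Differences between pairs of depots were interactions fitted on all 36 libraries with the same block. Alternatives were no replicate block, RLE factors, library totals, no filter, a mean of 10 CPM, DESeq2 1.42.0, limma 3.58.1 on log2(RPM + 1), all 36 libraries, each animal left out, and the animals of letter B. The scripts were tested on simulated data.

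The miRNAs named are those called that averaged 10 CPM or more and pointed one way in at least 5 of 6 animals (up to 12 per direction), all tested HOX-cluster and miR-200 members, the 5 with the highest mean and up to 4 per list with the smallest p. No candidate locus met the rule. Untested list members, miR-22-3p, miR-26c, miR-128 and miR-132 were chosen after their values were seen. The comparison and the lists were chosen with earlier results of these data known. p-values measure the spread among these 6 animals, those of the no-filter fit less closely for single features.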

Additional observations from a re-analysis of the deposited data

Results flagged for a closer look

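In 11 of 152 groups examined (76 named miRNAs in 2 depots, 7.24%), 1 library lay further from the others than Dixon's 95% limit allows; chance gives about 1 in 20. In 8 of the 11 it was the back library of animal 3: it was lowest in miR-218 (17.1 CPM, against 24.7 to 27.9 CPM in the other 5), and highest in miR-145 (2163 CPM), miR-148b (27.3 CPM), miR-148c (248 CPM), miR-30c (999 CPM, against 286.8 to 394 CPM), miR-30f (2059 CPM) and miR-126-5p (3754 CPM, against 940.4 to 1251 CPM). It was highest in miR-106a as well, at 5.11 CPM. The back library of animal 6 was highest in miR-200a (30.7 CPM, against at most 1.80 CPM) and miR-429 (24.5 CPM, against at most 1.54 CPM). The omental library of animal 2 was highest in miR-196a (36.6 CPM, against at most 3.75 CPM).

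The difference of back minus omental fat departed from that of inguinal minus perirenal fat on the log2 scale, with miR-196b at 5.15, miR-196a at 3.89, miR-451 at 2.37 and miR-1247-5p at −3.03 (interaction test of edgeR). From sternal minus pericardial fat it departed in 25 features, 16 upward and 9 downward, and only the miRNAs named by the rule are listed here. Upward departures were 2.74 for miR-542-5p, 2.55 for miR-424-5p, 2.52 for miR-424-3p, 2.49 for miR-451, 2.37 for miR-486, 2.34 for miR-9-5p and 2.17 for miR-450a. Downward departures were −3.87 for miR-10a, −3.05 for miR-204, −1.98 for miR-92b, −1.79 for miR-125a and −1.78 for miR-10b. None of the 7 upward calls listed held without animal 5. miR-542-5p, miR-424-5p and miR-424-3p were called in no fit with 1 animal left out but the one without animal 3, and miR-486 in none but the one without animal 1. miR-9-5p was lost without animals 1, 2, 4 or 5, miR-451 without 2, 4 or 5, and miR-450a without 5 or 6. Of the downward calls listed, miR-204 was lost without animals 1, 3, 4, 5 or 6, and miR-92b and miR-125a without 1, 3, 5 or 6, while miR-10a and miR-10b held without any 1 animal. miR-1247-5p, which the naming rule does not cover, was also called downward and held without any 1 animal.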

How the results depend on the processing

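Of 1202 values of the 76 named miRNAs under the alternatives, 1128 kept their direction and their side of the threshold, 34 passed newly, 12 no longer passed and 28 changed sign; the causes were not tested. The 3 calls of back against omental fat stayed 3 with RLE factors and with the 10 CPM filter and became 4 with library totals (2 in each direction, against 2 higher and 1 lower). They became 21 of 1552 features with no filter, 29 in DESeq2 and 5 in limma, each with the 3 among them. They became 15 with all 36 libraries and the replicate block, 11 with all 36 and no replicate block, and 1 with no replicate block on the 12. With the replicate block in the 4 letter B animals 0 were called in edgeR (31 at an unadjusted p under 0.05), and with each animal left out 0 to 4 were called; none without animal 3 (50 at an unadjusted p under 0.05) or animal 4 (43). Against inguinal minus perirenal fat, 4 became 0 with no replicate block, 2 with library totals (1 in each direction, against 3 upward and 1 downward) and 1 to 3 with an animal left out. Against sternal minus pericardial fat, 25 became 15 with no replicate block, 15 with no filter and 4 to 17 with an animal left out.

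No named miRNA that changed sign was called in either fit. With no replicate block miR-1 was at 0.26 and miR-206 at 3.92. With no filter miR-29a was at 0.024 and let-7d at 0.052, and in limma miR-206 was at 0.45. On all 36 libraries miR-1 was at 0.083, let-7d at 0.046 and miR-206 at 1.70 with the block, and at 0.38, 0.052 and 4.10 without it. In the letter B animals miR-142-3p was at 0.24, miR-1 at 0.15, let-7i at −0.057, miR-144 at 0.13 and miR-29d-3p at 0.19. With each animal left out, the ranges were −0.68 to 0.024 for miR-10a, −0.20 to 0.071 for let-7d, −0.94 to 0.52 for miR-206, −0.34 to 1.12 for miR-133a, −0.24 to 0.071 for miR-29a, −0.099 to 0.47 for miR-194, −0.0027 to 0.43 for miR-148a, −0.084 to 0.33 for miR-29c and −0.36 to 0.0030 for miR-29d-3p. With 6 animals and 5 residual degrees of freedom, a difference that was not called is not shown to be absent.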

Other observations

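The table holds miR-26a and miR-26c, and in each library 1 of these names held most of their summed reads. miR-26a took 91.3% to 97.1% of the pair in back fat of animals 1, 3 and 5 and 7.78% to 16.1% in animals 2, 4 and 6. In omental fat it took 90.2% to 97.3% in animals 1, 2, 3 and 5 and 8.41% and 17.8% in animals 4 and 6. In animal 2 alone the depots fell on opposite sides, at 9.28% in back and 90.2% in omental fat. The sum of the pair was 46949 to 141430 CPM in back and 60456 to 147855 CPM in omental libraries.

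Among the 7 features whose back and omental values did not overlap, 4 were lower and 3 higher in back fat. Besides miR-218, miR-196b and miR-22-5p they were miR-1839, named because it belongs to this count (26.9 ± 6.37 CPM against 14.6 ± 3.67 CPM, SD, n = 6; 0.89 ± 0.31, adjusted p = 0.356 in edgeR), and 3 candidate loci without a miRNA name. Of 22 precursors with both arms tested, the fitted differences of the arms had the same sign in 16.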
